A study of Mus musculus with 67 samples.

Results

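Leukocyte genes were followed in crypts of the mouse small intestine, which are isolated as epithelium but bring along the immune cells that live in and under it. The 31 genes were taken by name from a table of 29579 genes, and all 31 had a row. They cover receptor chains of T cells, surface proteins of T cells and intraepithelial lymphocytes, cytotoxic granule genes, genes of all leukocytes, B and plasma cell genes and macrophage genes. The 18 crypt libraries came from normal mice and from mice examined 1, 2, 3 or 5 days after irradiation (IR), either alone or with VPA and EPZ6438 (+VE), with 2 libraries in each of the 9 groups. The irradiated animals were 8-week-old female C57BL/6 mice given a single dose of 12 Gy. Those of the +VE groups then had daily gavage of VPA (40 mg/kg, an inhibitor of histone deacetylases) and EPZ6438 (0.6 mg/kg, an inhibitor of the histone methyltransferase EZH2). Whether each library is 1 mouse is stated for day 3 only, so the p-values measure the spread between these libraries. The background was read in 49 libraries of organoids, epithelial cultures grown in 10 media, which hold no leukocytes. The media were ENR (EGF, Noggin and R-Spondin 1), ENR with VPA and EPZ6438, and 8C, which contains both compounds among its components. The rest were 8C without VPA (8C -V), EPZ6438 (8C -E), both (8C -VE), EGF, bFGF, the GSK3 inhibitor or pexmetinib. Most of the media thus held VPA, EPZ6438 or both.

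The small intestine holds one of the largest lymphocyte populations of the body. Intraepithelial lymphocytes sit between epithelial cells, are mostly CD8+ T cells with either receptor type, stay there through the integrin CD103 binding to E-cadherin, and carry granzymes. Plasma cells of the lamina propria secrete dimeric IgA joined by the J chain, which epithelial cells carry to the lumen. Lymphocytes and B cells are among the most radiosensitive cells, while plasma cells and macrophages are generally held to be more resistant.

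Expression is given in TPM, a share of all transcripts after division by transcript length. Of the 31 genes, 25 averaged 1 TPM or more in crypts and were tested with limma on log2(TPM + 1) together with all other such genes, 10802 in all. Cd8b1, Cd2, Cd79a, Ms4a1, Csf1r and Adgre1 were below it. Called genes are those that differed 2-fold or more on this scale with a Benjamini-Hochberg adjusted p under 0.05. In bulk libraries fewer cells of a type and less RNA per cell cannot be told apart. The crypt libraries were uneven. The mitochondrial transcript mt-Atp8 took between 5.29% and 24.3% of all TPM, and the median gene moved by -0.36, -0.61, -1.03 and 0.27 (log2) on days 1, 2, 3 and 5 after irradiation alone against normal crypts.

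The promoters of the T cell receptor genes and granzymes are shown here because these genes were called lower together on day 5, as described below. Cd3g, Cd3d and Cd3e, which encode the gamma, delta and epsilon chains of CD3, lie next to each other on chromosome 9, with Cd3g and Cd3d pointing away from each other. The 250 bases before each start were taken from RefSeq (GRCm38.p6), 5′ to 3′ along the gene. Capitals mark TGTGGT, a RUNX-type motif, and AGGAAG, an ETS-type motif, on either strand.
Cd3g (chr9:44980432-44980681, - strand): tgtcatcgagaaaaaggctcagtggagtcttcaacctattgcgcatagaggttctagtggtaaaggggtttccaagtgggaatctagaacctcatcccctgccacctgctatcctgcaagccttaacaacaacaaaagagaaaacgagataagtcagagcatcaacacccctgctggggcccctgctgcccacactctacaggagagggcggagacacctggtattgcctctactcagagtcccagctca
Cd3d (chr9:44981536-44981785, + strand): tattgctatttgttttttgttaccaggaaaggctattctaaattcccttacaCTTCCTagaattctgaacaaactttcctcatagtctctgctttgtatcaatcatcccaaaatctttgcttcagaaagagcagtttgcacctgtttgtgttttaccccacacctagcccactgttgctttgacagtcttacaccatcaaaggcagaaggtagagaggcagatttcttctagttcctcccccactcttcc
Cd3e (chr9:45009612-45009861, - strand): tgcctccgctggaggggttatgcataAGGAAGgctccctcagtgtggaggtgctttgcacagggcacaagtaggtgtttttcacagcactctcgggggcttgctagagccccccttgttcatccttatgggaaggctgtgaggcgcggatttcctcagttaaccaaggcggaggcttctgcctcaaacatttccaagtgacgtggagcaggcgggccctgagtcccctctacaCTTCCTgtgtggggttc
Gzma (chr13:113100982-113101231, - strand): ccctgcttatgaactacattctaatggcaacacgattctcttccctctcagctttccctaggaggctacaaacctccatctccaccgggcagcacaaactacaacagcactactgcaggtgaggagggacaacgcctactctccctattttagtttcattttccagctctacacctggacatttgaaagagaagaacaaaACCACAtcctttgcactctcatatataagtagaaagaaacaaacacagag
Gzmb (chr14:56262335-56262584, - strand): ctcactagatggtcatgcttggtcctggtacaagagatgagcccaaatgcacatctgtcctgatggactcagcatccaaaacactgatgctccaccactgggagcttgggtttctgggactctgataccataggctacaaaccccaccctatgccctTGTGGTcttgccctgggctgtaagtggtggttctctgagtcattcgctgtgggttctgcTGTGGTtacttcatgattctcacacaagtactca
A promoter was found for 18 of the 31 genes, 22 promoters in all. AGGAAG stood in 15 of these 22 promoters and in 29.5% of all promoters of the table, and TGTGGT in 7 of them and in 14.0% of all. Among the 5 promoters shown, Cd3g held neither motif, Cd3d and Cd3e held only AGGAAG, and Gzma and Gzmb held only TGTGGT. Of 3 further motifs searched on both strands, GAGGAA, which overlaps AGGAAG in GAGGAAG, was in 10 of the 22 promoters and 23.3% of all, CAGCTG in 3 and 13.0%, and ATTTGCAT in 0 and 1.60%. A match of this kind is a description of letters and not of binding.

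T cell and intraepithelial lymphocyte genes were the most abundant, and they were lost almost completely by day 5. Gzma, a protease of cytotoxic granules, was at 507 and 150.3 TPM in the normal libraries. Gzma after irradiation alone was at 113 and 95.6 TPM on day 1, 306 and 279.7 TPM on day 2, 532 and 137 TPM on day 3 and 11.5 and 3.76 TPM on day 5. Replicates of the normal crypts and of day 3 after irradiation alone differed several-fold, and the day 5 libraries lay below all others. The Gzma level with VPA and EPZ6438 was 253 and 361 TPM on day 1, 286 and 263 TPM on day 2, 124 and 196 TPM on day 3 and 19.9 and 9.02 TPM on day 5. All 4 day 5 libraries were far under the normal crypts in both treatments.

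Cd3g showed the same course at a lower level. Its normal libraries held 23.5 and 12.7 TPM. Cd3g after irradiation alone was at 10.4 and 6.07 TPM on day 1, 17.5 and 16.2 TPM on day 2, 32.9 and 11.4 TPM on day 3 and 0.605 and 0.307 TPM on day 5. The level was lower on day 1 and within the range of the normal crypts on day 2. The Cd3g level with VPA and EPZ6438 was 18.4 and 19.8 TPM on day 1, 19.4 and 19.8 TPM on day 2, 13.3 and 16.4 TPM on day 3 and 0.905 and 0.876 TPM on day 5. The day 5 libraries of both treatments again lay below every other crypt library.

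Cd7, a surface protein of T and NK cells, was the most abundant of the surface proteins, at 66.4 and 25.3 TPM in normal crypts. Cd7 after irradiation alone was at 24.3 and 16.1 TPM on day 1, 60.3 and 48.9 TPM on day 2, 67.6 and 24.4 TPM on day 3 and 2.9 and 1.16 TPM on day 5. The day 1 libraries lay under the lower normal library, and those of day 2 within the normal range. The Cd7 level with VPA and EPZ6438 was 48.2 and 62.8 TPM on day 1, 62.5 and 66.6 TPM on day 2, 31.5 and 42.9 TPM on day 3 and 5.6 and 3.43 TPM on day 5. On days 1 and 2 the treated libraries lay within the range of the normal libraries, apart from the 66.6 TPM of day 2, just above it.

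On day 5 after irradiation alone, 22 of the 25 tested genes were called, all lower than in normal crypts, while 5.61% of all tested genes were called lower on that day (15.8% in either direction). They included all 14 tested T cell genes. Gzma fell by 5.17 on the log2 scale (SE 0.70, adjusted p = 0.00041, limma), Ccl5, a chemokine released by memory T cells, by 5.44 (SE 0.58, adjusted p = 5.9e-05) and Cd3g by 3.66 (SE 0.38, adjusted p = 1.1e-05). The tested T cell genes had a median level of 2.80% of the normal mean, from 1.69% for Cd3d to 12.8% for the kinase gene Lck. The median gene moved the other way, by 0.27, so these falls run against the general shift. The 3 genes not called were Rac2, Cd68 and Itgam. Mzb1 and Cd79b averaged under 1 TPM over the irradiated libraries and so were tested only because of their level in normal crypts. Without such genes 20 of 23 were called lower on day 5, beside 4.76% of all genes.

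With both compounds the day 5 level was also low, with a median of 4.99% of the normal mean over the same T cell genes. Against day 1, with the mean taken over both treatments, 20 genes were called lower on day 5, beside 4.18% of all tested genes. These were all 19 tested genes of T cells and of all leukocytes, and Jchain. In 15 of the 16 T cell genes all 4 day 5 libraries lay below all 14 other crypt libraries, and 1.61% of all tested genes showed this. Cd2, the exception, reached 0 TPM in 1 library of day 2. The summed T cell genes on day 5 after irradiation alone were at 1.47% of the normal mean without the first library of that group and 3.97% without the second.

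**Figure D1:**
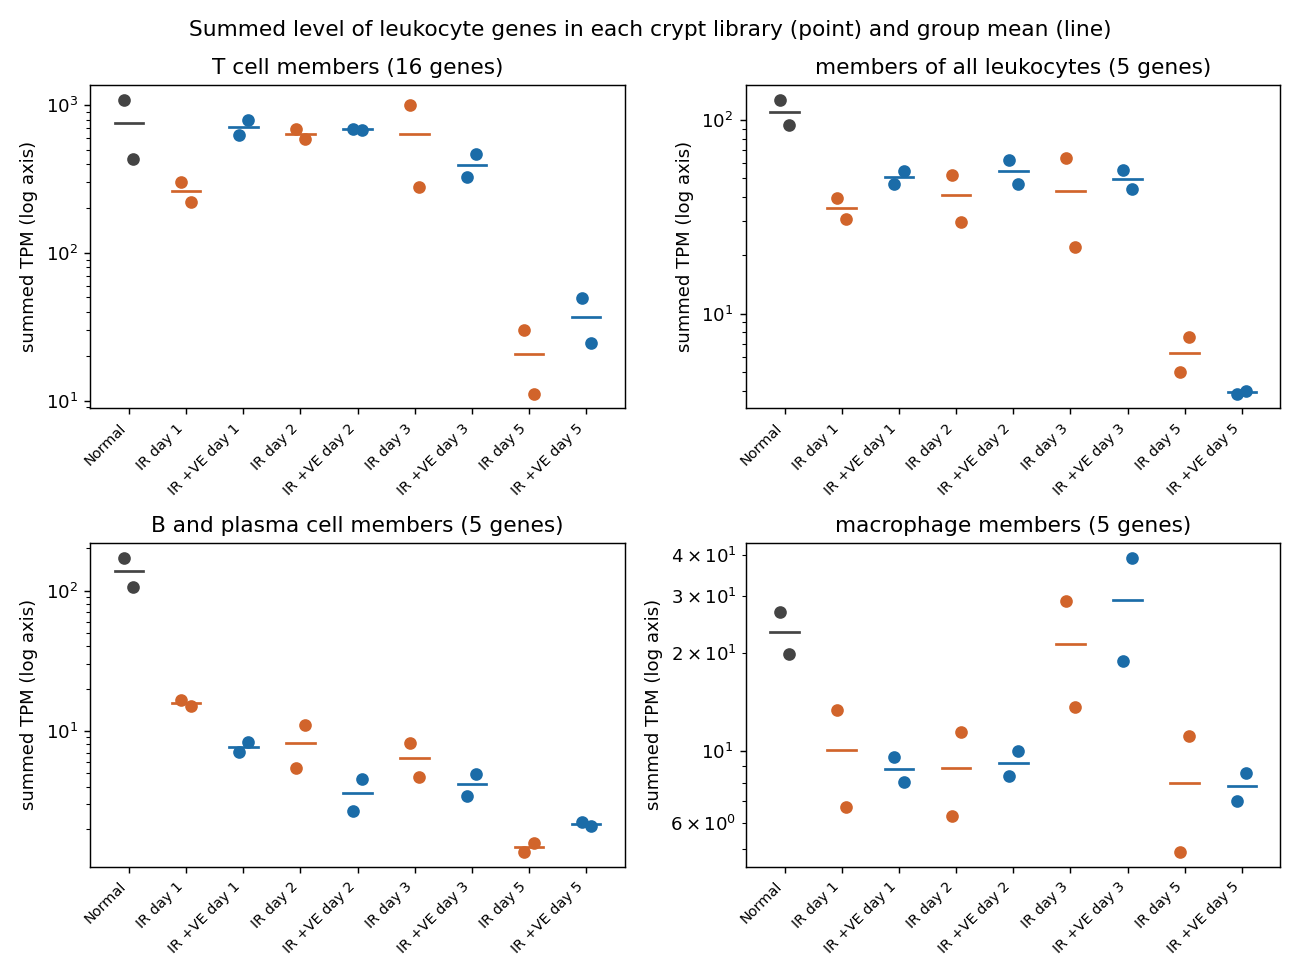
Summed TPM of 16 T cell genes, 5 genes of all leukocytes, 5 B and plasma cell genes and 5 macrophage genes (vertical log axes) in each crypt library (points; lines are means of 2 libraries), by group. The T cell sum fell to a mean of 20.7 TPM on day 5 after irradiation alone from 762 TPM in normal crypts. Without Gzma and Ccl5 it was 258 and 114 TPM in normal crypts and 11.5 and 4.88 TPM on that day. The B and plasma cell sum was low from day 1. In normal crypts most of it was Jchain, 150.4 of 171 and 91.4 of 105 TPM.

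On day 1 after irradiation alone every one of the 25 tested genes had a lower mean than in normal crypts, but 7 were called, beside 5.48% of all tested genes called lower. Without Mzb1, tested only because of its normal level, 6 were. With mitochondrial genes removed, quantile normalization, 75th percentile scaling or the trend with transcript length removed, 4 were called, beside 1.77%, 1.78%, 1.61% and 1.73% of all genes called lower. Leaving out the first normal library left 3, beside 5.27%, and leaving out the first library of day 1 gave 11, beside 17.3% of all genes called lower there. The T cell genes called were Cd3e, Cd160, an inhibitory receptor of intraepithelial lymphocytes, and Itgae, the CD103 integrin chain. Cd160 fell by 1.80 (SE 0.30, adjusted p = 0.0023, limma). The summed T cell genes stood at 34.4% of the normal mean, and leaving out a single normal or day 1 library moved this to between 24% and 60.6%. Coro1a, a cytoskeletal protein of leukocytes, had 47.6 and 30.6 TPM in normal crypts. Coro1a after irradiation alone was at 7.68 and 5.76 TPM on day 1, 9.47 and 10.4 TPM on day 2, 23.7 and 7.92 TPM on day 3 and 1.01 and 0.985 TPM on day 5. All irradiated libraries lay below both normal libraries. The Coro1a level with VPA and EPZ6438 was 11.8 and 15.5 TPM on day 1, 10.2 and 10.6 TPM on day 2, 9.76 and 13.1 TPM on day 3 and 0.705 and 1.69 TPM on day 5. The treated libraries also lay below the normal ones on every day.

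The Coro1a change on day 1 was a fall of 2.36 (SE 0.38, adjusted p = 0.0015, limma), and Cd52, a surface glycoprotein of lymphocytes, fell by 1.98 (SE 0.45, adjusted p = 0.015). Both were also called on days 2, 3 and 5. Under the 4 scalings named above Cd52 was not called on days 1, 2 and 3, nor was Coro1a on day 3. Rac2, a GTPase of blood cells, was not called against normal crypts on any day, and its replicates differed, with 18.4 and 2.00 TPM on day 2 after irradiation alone.

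On day 2, 7 genes were called lower, beside 26.2% of all tested genes, and on day 3, 11 were, beside 51.3%. Without Mzb1 and Cd79b, 5 and 9 of 23 were, beside 25.5% and 50.9% of all genes. On day 2 quantile normalization, 75th percentile scaling or removal of the length trend left 3 called, beside 7.77%, 9.84% and 7.35% of all genes called lower, and leaving out the first normal library left 4, beside 32.5%. On day 3 mitochondrial gene removal gave 5 called lower, beside 32.5% of all genes. Quantile normalization gave 2 lower, beside 12.2%, and 3 higher, beside 11.1%. Scaling to the 75th percentile gave 2 lower, beside 18.5%, and 1 higher, beside 9.65%. Length trend removal gave 2 lower, beside 12%. No T cell gene was called on day 2 (limma, 2 of 14 at an unadjusted p under 0.05, against 6484 of all 10802 tested genes). The day 3 libraries of irradiation alone disagreed. The summed T cell genes were 1006 and 279 TPM, and leaving out the second, lower library took the called genes from 11 to 5, beside 57.0% of all genes called lower there, and leaving out the first, higher one to 17, beside 44.0%. Leaving out the first normal library left 7, beside 54.9%. The day 3 count thus lay below the share of all genes or above it depending on 1 library. Across the 19 tested genes of T cells and all leukocytes the rank correlation of transcript length with the change after irradiation alone was 0.64, -0.096, -0.38 and 0.82 on days 1, 2, 3 and 5, and over all 10802 tested genes 0.16, 0.048, -0.17 and 0.36. On the log2(TPM + 1) scale the longer of these 19 genes thus tended to have the smaller decreases on days 1 and 5. That scale understates changes of low genes, and the part of expression level was not tested. The genes share their libraries. On day 5 the same 22 genes were called with the length trend removed.

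**Figure D2:**
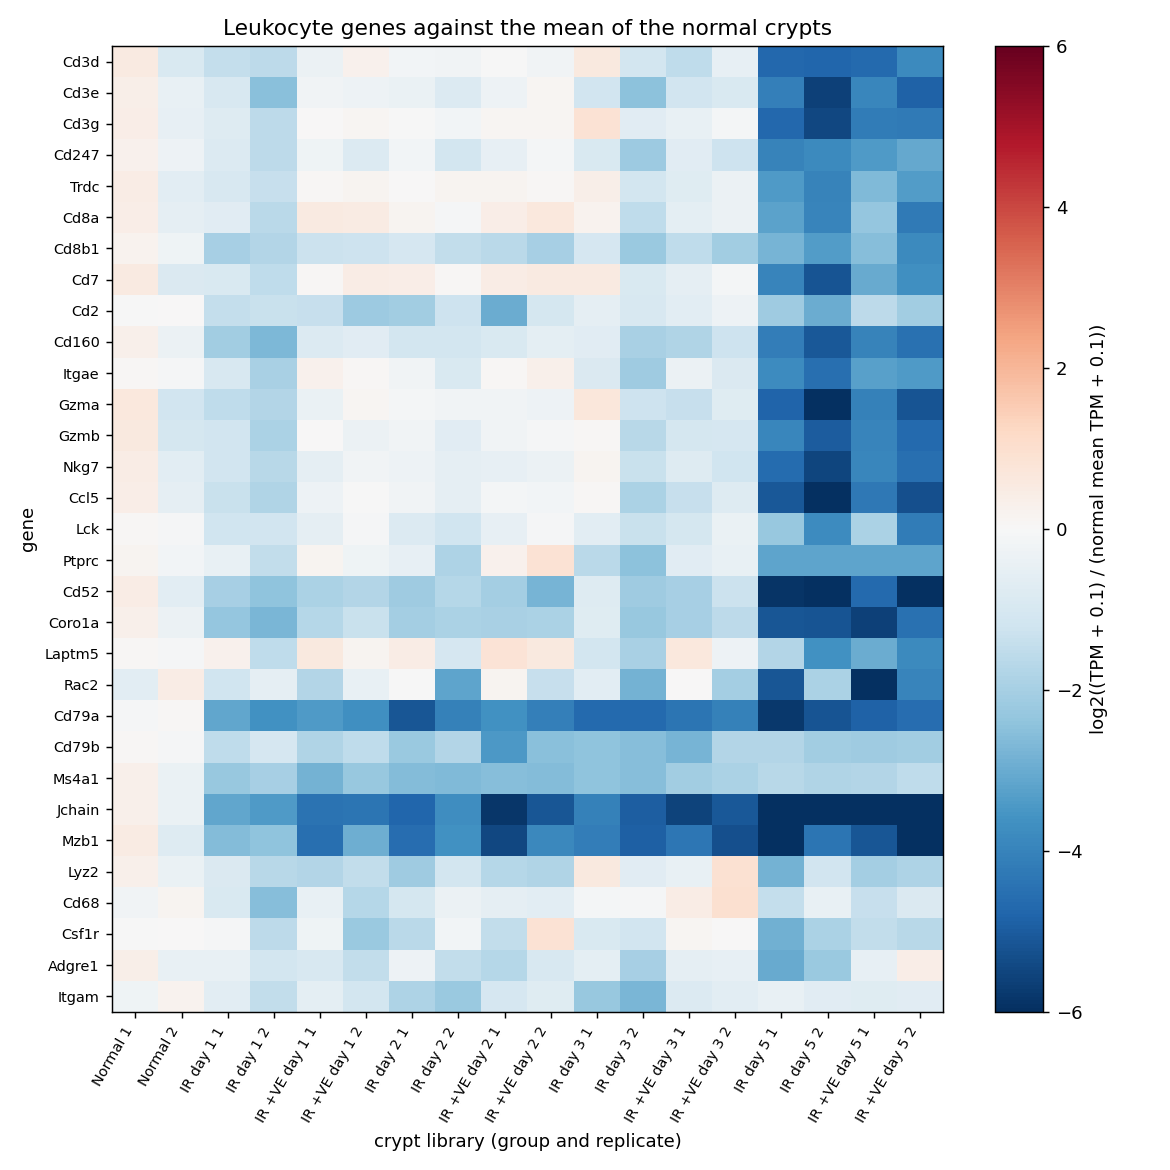
Heatmap of 31 leukocyte genes (rows) in 18 crypt libraries (columns, group and replicate), as log2 of TPM + 0.1 over the normal mean + 0.1, with colours ending at -6 and 6. The 4 day 5 columns are blue for nearly all T cell genes, and Jchain, Mzb1 and Cd79a are blue in every irradiated library.

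B and plasma cell genes were read mainly through Jchain, which was low from day 1 on. Jchain, the joining chain of IgA and IgM, was at 150.4 and 91.4 TPM in normal crypts. Jchain after irradiation alone was at 13.7 and 11.4 TPM on day 1, 4.41 and 9.16 TPM on day 2, 7.07 and 3.8 TPM on day 3 and 0.22 and 0.386 TPM on day 5. Every irradiated library lay below both normal ones, and the day 5 libraries were the lowest. The Jchain level with VPA and EPZ6438 was 5.45 and 5.79 TPM on day 1, 1.99 and 3.3 TPM on day 2, 2.46 and 3.44 TPM on day 3 and 1.15 and 1.01 TPM on day 5. The level with both compounds was below that of irradiation alone on days 1, 2 and 3 and above it on day 5.

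Jchain was called lower on every day after irradiation alone, with a log2 change of -3.13 on day 1 (SE 0.34, adjusted p = 6.3e-05, limma) and of -6.51 on day 5 (SE 0.34, adjusted p = 4.3e-08). Mzb1, a chaperone of antibody secretion, and Cd79b, a signalling chain of the B cell receptor, reached the minimum through the normal crypts and are given by their values. Mzb1 was at 10.7 and 4.27 TPM in normal crypts, 1.16 and 1.32 TPM on day 1 and 0 and 0.259 TPM on day 5 after irradiation alone. Cd79b was at 3.91 and 3.54 TPM, 1.22 and 1.8 TPM and 1.03 and 0.79 TPM. Its partner Cd79a was under the minimum, with 5.27 and 5.69 TPM in normal crypts and at most 0.552 TPM after irradiation. Ms4a1, which encodes CD20, was at 0.778 and 0.442 TPM in normal crypts. In all 5 genes both normal libraries lay above all 16 irradiated ones, and 8.05% of all tested genes showed this. Mzb1 and Cd79b were tested only because of their normal level and Cd79a and Ms4a1 were not tested, so nothing is read from this count.

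Other B and plasma cell genes were read beside these. Of 32 listed, 11 were tested, and 7, 9, 9 and 7 were called lower on days 1, 2, 3 and 5, beside 5.48%, 26.2%, 51.3% and 5.61% of all tested genes. Without 2 genes tested only because of their normal level, 6, 7, 7 and 6 of 9 were. Igkc, the kappa light chain, was at 1803 and 1421 TPM in normal crypts, 173 and 126 TPM on day 1 and 1.65 and 9.24 TPM on day 5 after irradiation alone. Igha, the heavy chain of IgA, went from 1149 and 1015 to 119 and 50.6 and 2.54 and 5.55 TPM. Both were called lower on all 4 days. Xbp1 and Sdc1, also made by epithelium, were at 114 and 136 and at 29.5 and 51.8 TPM in normal crypts, and Sdc1 was called higher on days 2, 3 and 5. The blood genes moved too. Hbb-bs, a haemoglobin chain, was at 47.1 and 6.37 TPM in normal crypts and 1.81 and 2.68 TPM on day 1, and its part in the B cell result was not tested.

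Of the 5 macrophage genes 3 were tested, and 1 of them, Lyz2, was called lower on day 5. Lyz2, the lysozyme of macrophages, was at 20.4 and 12.4 TPM in normal crypts. Lyz2 after irradiation alone was at 8.93 and 5.04 TPM on day 1, 3.66 and 7.66 TPM on day 2, 25 and 10.2 TPM on day 3 and 2.17 and 7.35 TPM on day 5. The day 3 libraries lay on either side of the normal range. The Lyz2 level with VPA and EPZ6438 was 4.8 and 5.88 TPM on day 1, 4.92 and 4.62 TPM on day 2, 12.1 and 30.6 TPM on day 3 and 3.89 and 4.42 TPM on day 5. The highest library of all was one of day 3 with both compounds.

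Lyz2 was called lower on day 2 (log2 change -1.41, SE 0.53, adjusted p = 0.036, limma) and day 5 (-1.72, SE 0.53, adjusted p = 0.027). The day 2 call was lost under the same 4 scalings and without either normal library or the first day 2 library, and the day 5 call without the first normal or the first day 5 library. It has a close paralogue in Paneth cells, Lyz1, which was at 2103 and 4975 TPM in normal crypts and 1467 and 3278 TPM on day 3 after irradiation alone, and reads shared by the copies could move Lyz2. In the organoids Lyz1 ran from 365 to 4403 TPM and Lyz2 reached at most 2.20 TPM. In crypts Lyz2 ran from 2.17 to 30.6 TPM. Levels across the sets were not tested, nor was the part of shared reads in the Lyz2 result. Cd68, a lysosomal protein of macrophages, and Itgam, the CD11b integrin of myeloid cells, were not called on day 5. Itgam was at 1.93 and 2.68 TPM in normal crypts, 0.557 and 0.415 TPM on day 2, 0.397 and 0.258 TPM on day 3 and 1.68 and 1.40 TPM on day 5 after irradiation alone. It was called lower on day 2 (log2 change -1.15, SE 0.23, adjusted p = 0.0011, limma) and day 3 (-1.31, SE 0.23, adjusted p = 0.00015). Neither call was made under quantile normalization, 75th percentile scaling or removal of the length trend, nor that of day 2 without the second normal library. Csf1r and Adgre1, the receptor and the F4/80 antigen that define macrophages, stayed under 2 TPM in every crypt library, from 0.0554 to 1.94 TPM and from 0 to 0.954 TPM. Of 30 other macrophage, monocyte and dendritic cell genes 12 were tested, and 0, 4, 3 and 7 were called lower on days 1, 2, 3 and 5, beside the same shares of all genes as above. On day 1, 2 of the 12 had an unadjusted p under 0.05 with limma, against 3555 of all 10802 tested genes, and 0 were called. Without 1 gene tested only because of its normal level, 6 of 11 were called on day 5. Tyrobp, a signalling adaptor of myeloid and NK cells, was at 32.7 and 15.6 TPM in normal crypts and 0.114 and 0.862 TPM on day 5 after irradiation alone. Fcer1g, the common gamma chain of Fc receptors, was at 16 and 8.09 TPM and 0.508 and 1.2 TPM. Both were called lower on day 5, while Ctss, a lysosomal protease, at 58.8 and 52.8 TPM and 47.7 and 36.6 TPM, and Cd14, a receptor for bacterial lipopolysaccharide, at 7.61 and 6.55 TPM and 8.92 and 10.3 TPM, were not. S100a9, a calcium-binding protein of neutrophils, was at 0 TPM in both normal libraries and at 44.2 and 10.3 TPM on day 3, and was called higher on days 2 and 3. Mcpt1, a protease of mucosal mast cells, was at 33.3 and 52.6 TPM in normal crypts, 0.229 and 0 TPM on day 1 and 0.282 and 0.399 TPM on day 5, and reached the minimum only through its normal level.

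Genes of T cells that were not among the 31 were also called lower in the largest number on day 5. Of 51 listed, 17 were tested, and 5 were called lower on day 1, 3 on day 2, 5 on day 3 and 16 on day 5, beside the shares of all genes given above. Without 1 gene tested only because of its normal level, 15 of 16 were called on day 5. Trbc2, the constant region of the T cell receptor beta chain, was at 34.3 and 19.7 TPM in normal crypts and 0.595 and 0.23 TPM on day 5 after irradiation alone. Klrd1, the CD94 receptor, was at 7.55 and 2.57 and 0.716 and 0.158 TPM. Of 28 other leukocyte genes 20 were tested and 14 were called lower on day 5, beside 5.61% of all tested genes, and 13 of 19 without 1 gene tested only because of its normal level. The most abundant of them, Tmsb4x, an actin-binding peptide of many cell types, was at 1791 and 1287 TPM in normal crypts and 1736 and 1445 TPM on day 5, and Cyba, a subunit of NADPH oxidase, at 197 and 153 and 126 and 156 TPM, and neither was called. Those called included Srgn, the proteoglycan of secretory granules, at 51.4 and 22.5 TPM in normal crypts and 1.81 and 2.45 TPM on day 5. Of 20 tested epithelial genes, 2 were called lower on day 5 and 2 higher. The sum of 24 genes of stroma, vessel, smooth muscle and nerve ranged from 34.6 to 35.5 TPM in normal crypts and from 17.5 to 18.4 TPM on day 5 after irradiation alone, and the part of such cells in the lymphocyte result was not tested.

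The question for VPA and EPZ6438 was whether they altered leukocyte genes at the same day after irradiation. On day 1 all 14 tested T cell genes had a higher mean with both compounds, and the libraries did not overlap for 14 of the 16 T cell genes, beside 35.7% of all tested genes that were higher without overlap. None of the 25 genes was called (limma, 0 also with eBayes without trend or robust), beside 0.00926% of all tested genes. At an unadjusted p under 0.05 (limma) were 13 of the 25, against 1424 of all 10802 tested genes. Itgae had the smallest adjusted p of the T cell genes, 0.17, with a log2 change of 1.28 (SE 0.31). Gzma changed by 1.53 (SE 0.70, adjusted p = 0.38). The median T cell gene moved by 1.17 and the median of all genes by 0.27. Without the first library of irradiation alone on day 1, 5 of the 25 genes were called, but so were 1201 of the 10792 genes tested there, against 1 with all libraries.

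On day 2, 2 genes were called, beside 8.38% of all tested genes, 1 in each direction. Ptprc, the CD45 phosphatase, was at 6.61 and 5.16 TPM in normal crypts. Ptprc after irradiation alone was at 4.35 and 2.07 TPM on day 1, 4.09 and 1.58 TPM on day 2, 1.88 and 0.996 TPM on day 3 and 0.573 and 0.578 TPM on day 5. The level was lowest on day 5, and the replicates of day 2 differed. The Ptprc level with VPA and EPZ6438 was 6.59 and 4.85 TPM on day 1, 6.95 and 10.7 TPM on day 2, 3.67 and 4.25 TPM on day 3 and 0.57 and 0.564 TPM on day 5. On days 2 and 3 both treated libraries lay above both libraries of irradiation alone, as they did for 67.7% and 71.1% of all tested genes.

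Ptprc was higher with both compounds on day 2 by 1.41 (SE 0.34, adjusted p = 0.032, limma) and on day 3 by 1.05 (SE 0.34, adjusted p = 0.018). The median of all genes was higher by 0.42 and 0.69 on those days, and 31.7% of all tested genes were called on day 3. With the trend of each library on transcript length removed, an alternative chosen after seeing the data, Ptprc changed by 0.72 (adjusted p = 0.27) on day 2 and by -0.05 (adjusted p = 0.92) on day 3. Jchain was lower on day 2 by 1.05 (SE 0.34, adjusted p = 0.049), and was not called with mitochondrial genes removed (adjusted p = 0.15). Under quantile normalization, scaling to the 75th percentile, removal of mitochondrial genes or removal of the length trend, 0 of the 25 genes were called on day 2. The same 4 scalings called 0 of all tested genes. Leaving out the second library of irradiation alone on that day, or the first or the second with both compounds, also left 0 of the 25, beside 4, 1 and 2 of all tested genes against 905 with all libraries.

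Laptm5, a lysosomal membrane protein of leukocytes, was the other gene called on day 3, and its normal libraries held 8.74 and 8.03 TPM. Laptm5 after irradiation alone was at 10.0 and 2.85 TPM on day 1, 11.3 and 4.06 TPM on day 2, 3.83 and 2.08 TPM on day 3 and 2.41 and 0.592 TPM on day 5. The replicates of days 1 and 2 differed more than 2-fold. The Laptm5 level with VPA and EPZ6438 was 12.7 and 9.41 TPM on day 1, 14.9 and 12.6 TPM on day 2, 12.9 and 6.8 TPM on day 3 and 0.992 and 0.492 TPM on day 5. Both treated libraries of day 3 lay above both of irradiation alone. The day 3 change was 1.43 (SE 0.52, adjusted p = 0.032, limma), and 0.64 (adjusted p = 0.39) with the length trend removed. Neither Ptprc nor Laptm5 was called on day 3 under any of the 4 scalings. Without the second library of irradiation alone on day 3, 6 other genes were called, all lower with both compounds, beside 39.8% of all genes called in either direction, and without the first Itgae and Ptprc were called, beside 21.7%. Leaving out 1 library with both compounds on day 3 left 1, Ptprc without the first, beside 30.5%, and Laptm5 without the second, beside 29.9%. With all libraries none of the T cell genes was called on day 2 or day 3. The 24 genes of stroma, vessel, smooth muscle and nerve summed on day 3 to 17.0 and 15.2 TPM after irradiation alone and 28.8 and 54.2 TPM with both compounds, and 2 of the 4 tested, Vim and Sparc, were called higher. On day 2 they summed to 19.2 and 25.9 TPM and to 28.1 and 25.3 TPM. The part of such cells in the Ptprc and Laptm5 results was not tested.

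**Figure D3:**
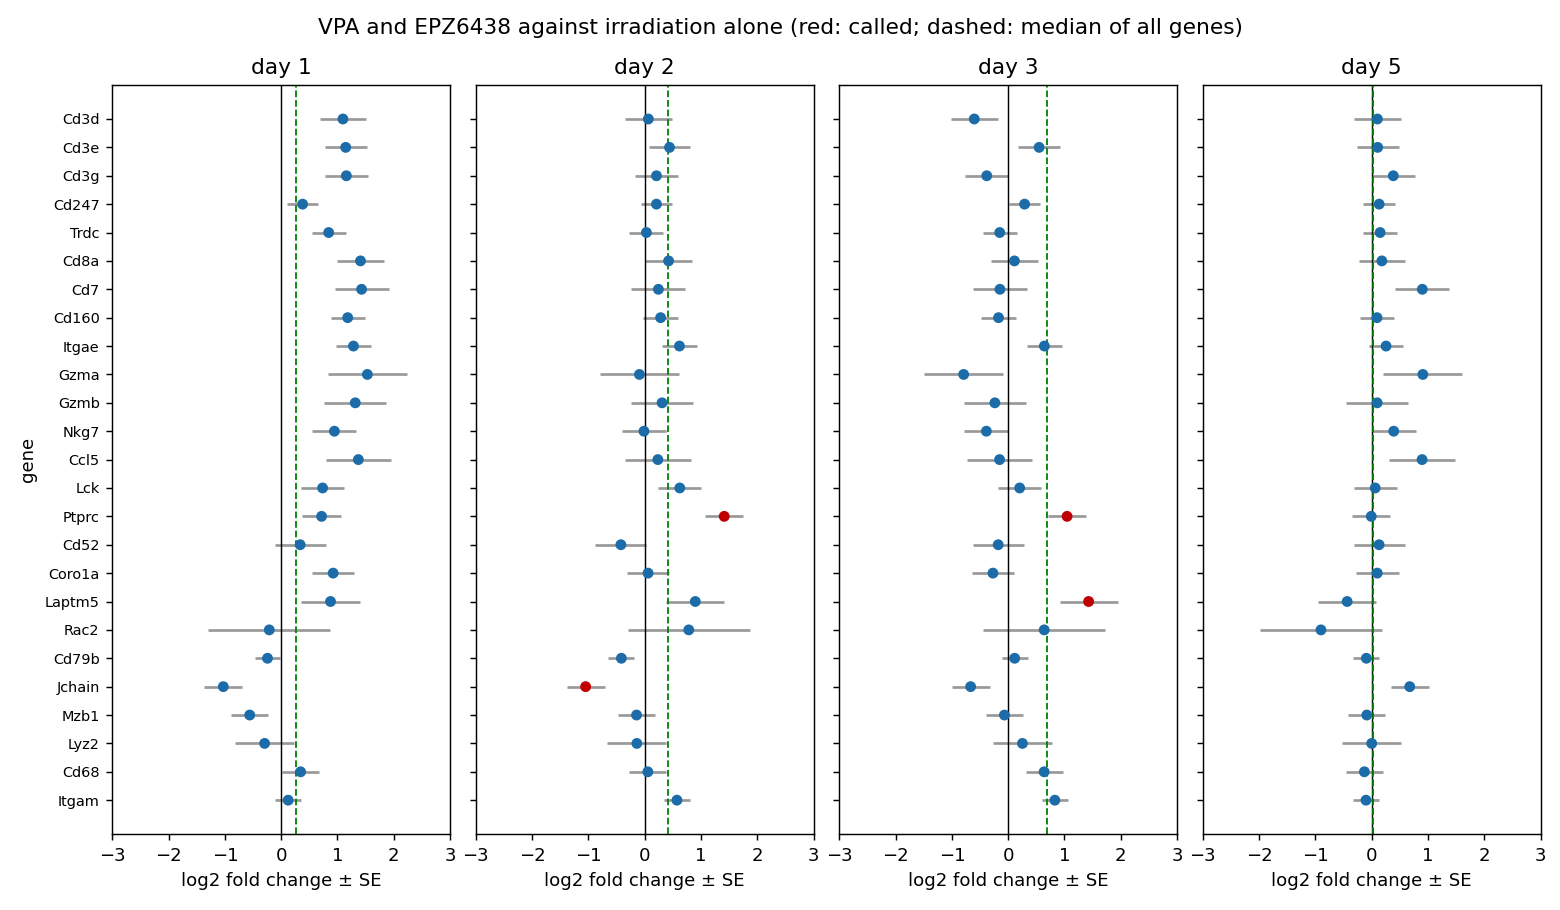
Log2 fold change with its SE (horizontal) of 25 tested genes (rows) for VPA and EPZ6438 against irradiation alone on each day. Red points are called genes, Ptprc and Jchain on day 2 and Ptprc and Laptm5 on day 3, and the dashed line is the median of all tested genes, 0.27, 0.42, 0.69 and 0.03 on days 1, 2, 3 and 5.

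On day 5 none of the 25 genes was called (limma, 0 also with eBayes without trend or robust), beside 0.0185% of all tested genes. At an unadjusted p under 0.05 (limma) were 0 of the 25, against 178 of all 10802 tested genes. For the mean over the 4 days 0 of 25 were called (10 at an unadjusted p under 0.05, against 6586 of all 10802 tested genes), beside 3.55%. Without the 2-fold minimum 8 of 25 were called, against 5932 of all 10802. The test of whether the treatment effect depended on the day called 0 of 25 (3 at an unadjusted p under 0.05), beside 1.75% of all tested genes, or 189. That number ran from 2, without the first library with both compounds on day 2, to 2477, without the second library of irradiation alone on day 1. Over all irradiated groups against normal, 12 genes were called, all lower, beside 8.1% called lower and 11.5% called in all. Without Mzb1 and Cd79b 10 of 23 were called lower, beside 7.29% of all genes. Leaving out the first normal library gave fewer of these genes called but a larger number of all tested genes.

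The organoids gave the background of these genes in epithelium alone. The organoid columns summed to between 983801 and 988144 TPM and the crypt columns to between 819346 and 910935 TPM, so levels across the sets were not tested. The organoid median was under 1 TPM for 28 of the 31 genes and 0 for 17. Gzma reached at most 0.288 TPM in any organoid library against at least 3.76 TPM in crypts, and Cd8a at most 0.0834 TPM against at least 0.255 TPM. Both normal libraries lay above every organoid library for 26 of the 31 genes, the others being Lck, Cd79b, Cd68, Itgam and Csf1r.

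Lck, Cd79b and Cd68 were the 3 genes with an organoid median of 1 TPM or more, at 7.67, 3.51 and 4.10 TPM. Each of these was above the crypt median, as was that of Ms4a1 at a level under 1 TPM. Lck, the kinase that starts T cell receptor signalling, was found in all 49 organoid libraries, with a lowest of 1.13 and a highest of 15.1 TPM. It varied between the media. Its mean was 2.11 TPM ± 0.951 (SD, n = 7) in the ENR condition and 9.75 TPM ± 0.933 (SD, n = 3) with VPA and EPZ6438 added, and these libraries did not overlap. In the 8C condition it was 10.8 TPM ± 2.96 (SD, n = 7) and without VPA and EPZ6438 2.65 TPM ± 0.648 (SD, n = 7), again without overlap. Cd79b went the other way, at 5.69 TPM ± 2.15 (SD, n = 7) in the ENR condition and 1.44 TPM ± 0.464 (SD, n = 3) with both compounds. No test was run on these organoid levels. Lck on day 5, at 1.66 and 0.53 TPM after irradiation alone, was thus within or below the range seen without leukocytes. The normal crypts, at 9.06 and 8.00 TPM, also lay within that range. For Lck 0 of the 18 crypt libraries lay above every organoid library.

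**Figure D4:**
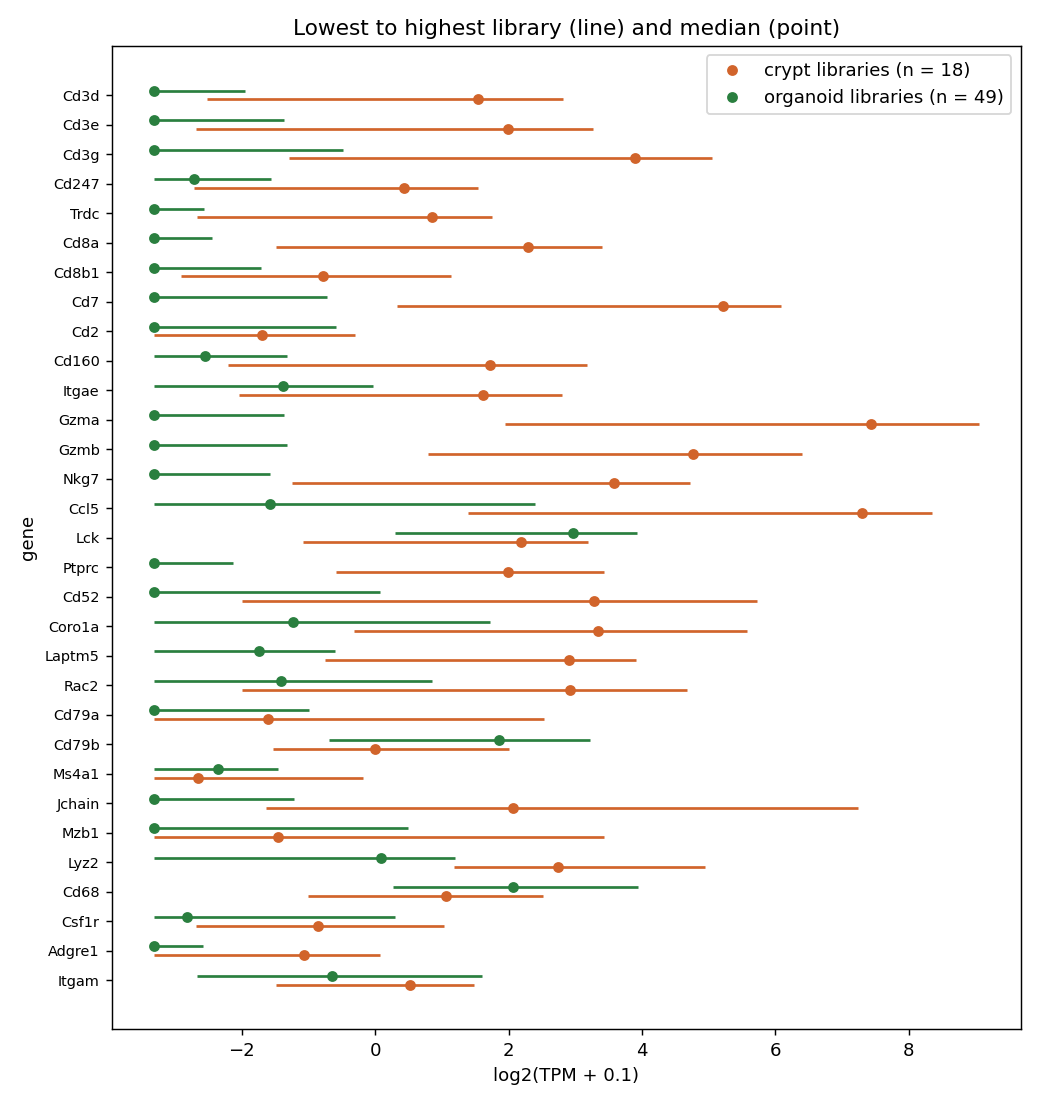
Level of 31 leukocyte genes (rows) as log2(TPM + 0.1) in 18 crypt and 49 organoid libraries, with lines from the lowest to the highest library and points at the median. Lck, Cd79b and Cd68 have organoid medians of 7.67, 3.51 and 4.10 TPM, while Gzma, Gzmb and Cd7 do not overlap between the sets.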

How the data were processed

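Total RNA of 67 mouse libraries was sequenced. Per the submitters' processing notes, the authors used Trimmomatic 0.39 for trimming, STAR 2.7.3a for alignment to mm10 and featureCounts for counting, and they deposited values as TPM in one table of 29579 genes. How counts became TPM is not given in the sources used here. TPM keeps no number of reads, so neither depth nor counting error can be given.

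Crypt values were transformed to log2(TPM + 1), which understates changes of low genes. All 18 crypt libraries in 9 groups entered one limma 3.58.1 fit in R 4.3.3 (eBayes with trend and robust), for genes averaging 1 TPM or more. P-values were adjusted over 10802 genes. On simulated data the fit of day 1 against normal crypts recovered 174 of 200 genes changed by 2 (log2) and called 11 of the others. The members and lists were chosen with earlier results of these data known. Libraries were described one by one for the most abundant gene of each role and for genes called between treatments, and at most 4 genes of each other list were named by mean level. A gene that this rule would name is not reported here. Alternatives were another pseudocount, minimum, scaling, eBayes setting, set of groups, a replicate block and leaving out each library. Removal of the trend with transcript length and crossed replicate numbers were added after seeing the data. Gene lengths and positions came from GENCODE M21 and promoters from RefSeq. Drawing and tables used Python 3.11.15.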

Additional observations from a re-analysis of the deposited data

Results flagged for a closer look

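For 3 of the 25 tested genes the libraries with VPA and EPZ6438 lay all on one side of irradiation alone on some days and all on the other side on another day. The difference was not tested for these pairs of days, and the test over all 4 days called none of them. Such a pattern was seen in 12.4% of all tested genes, and on days 2 and 3 most tested genes, 67.7% and 71.1%, were higher with both compounds without overlap. Ptprc was above irradiation alone on days 1, 2 and 3 and below it on day 5, at 0.57 and 0.564 TPM (mean 0.567 TPM) with both compounds against 0.573 and 0.578 TPM. Jchain was below on day 1 (mean 5.62 TPM with both compounds), day 2 (2.64 TPM) and day 3 (2.95 TPM), and above on day 5. Itgam was above on days 2 and 3 and below on day 5, at 1.37 TPM. Cd8b1, which was not tested, was above on day 1, at 0.672 and 0.691 TPM against 0.370 and 0.450 TPM, and below on day 2, at 0.517 and 0.374 TPM against 0.837 and 0.578 TPM.

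In the organoids, 1 library stood apart from the rest of its condition for Lck without EPZ6438 (8C -E, 3.22 TPM), for Cd79b without VPA (8C -V, 5.73 TPM), and for Cd68 in the 8C condition (15.3 TPM) and without both compounds (8C -VE, 7.13 TPM). Chance gives about 1 such library in 20 groups, and 15 groups were examined.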

How the results depend on the processing

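On day 5 after irradiation alone the same 22 genes were called under quantile normalization, 75th percentile scaling, removal of mitochondrial genes and removal of the length trend, and 12 with a minimum of 5 TPM, where fewer genes are tested. Day 5 against day 1 also gave 12 with that minimum. Other counts depended on the scaling, and the cause was not tested. The share of all genes called also depended on the scaling and is not given beside each count here. These counts are therefore not read as results about leukocyte genes. Day 1 after irradiation alone gave 3 called genes with a pseudocount of 0.1 or only the groups compared, and 4 with a minimum of 5 TPM, mitochondrial genes removed, quantile normalization, 75th percentile scaling or the length trend removed. Day 2 gave 4 with that minimum and 3 with quantile normalization, 75th percentile scaling or the length trend removed. Day 3 gave 4, 5, 5, 3 and 2 with the minimum of 5 TPM, mitochondrial genes removed, quantile normalization, 75th percentile scaling and the length trend removed. All irradiated groups gave 7, 7 and 5 with the last 3 of these. For VPA and EPZ6438, day 2 gave 1 with a pseudocount of 0.1, a minimum of 5 TPM, the replicate block or only the groups compared, and 0 with no minimum mean or any of the 4 scalings. Day 3 gave 1 with a minimum of 5 TPM, no minimum, 75th percentile scaling or the length trend removed, 0 with mitochondrial genes removed and 4 with quantile normalization. The mean over days gave 2 with a pseudocount of 0.1, 1 with quantile normalization and 8 without a minimum fold change, and the interaction with day gave 1 with a pseudocount of 0.1. On day 3 after irradiation alone Cd160 and Itgae turned to 0.21 and 0.076 (log2) with quantile normalization and to 0.0045 and 0.0044 with the length trend removed, and Ptprc with both compounds turned to -0.049 on day 3.

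Leaving out single libraries gave 3 to 11 called genes on day 1 after irradiation alone (3 without normal replicate 1), 4 to 7 on day 2, 5 to 17 on day 3, 5 to 14 over all irradiated groups, 0 to 5 for VPA and EPZ6438 on day 1, 0 to 2 on day 2, 1 to 6 on day 3 and 0 to 1 for the interaction. The summed T cell genes were 24% to 60.6% of normal on day 1 and 1.47% to 4.80% on day 5, and the summed B and plasma cell genes 9.24% to 15% and 0.867% to 1.41%. With 75th percentile scaling the summed T cell genes were 44.1% on day 1 and 199% on day 3, the B and plasma cell genes 15%, 10.7% and 0.891% on days 1, 3 and 5 and the macrophage genes 215% on day 3. With mitochondrial genes removed the B and plasma cell genes were 13.9% and 7.07% on days 1 and 3. The macrophage genes were then at 141% on day 3. In normal crypts most of the B and plasma cell sum was Jchain. Most of the macrophage sum was Lyz2, and without it the day 3 level was 54.0% of normal, 124% with 75th percentile scaling and 81.7% with mitochondrial genes removed.

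Replicate numbers were not taken to pair the libraries. Correlations of deviations ran from -0.20 to 0.36 over 36 pairs of groups, with 15 above 0.1 and 4 under -0.1. The replicate block kept 81 of 83 calls of single genes, and crossed numbers kept 14 of 14.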
